A study of Mus musculus with 8 samples.

Results

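The genes described here handle retinoic acid in the testis: the carriers and uptake proteins Rbp4, Stra6 and Crabp1, the retinol dehydrogenases Rdh10 and Rdh11, the retinal dehydrogenases Aldh1a1 and Aldh1a2, the retinoic acid hydroxylase Cyp26b1 and the receptor Rara. They were chosen by name as the genes of retinoic acid transport, synthesis, breakdown and reception, and all 9 were among the 17127 genes of the deposited table. The libraries were made from whole adult testis of 4-month-old males, 4 labelled WT and 3 labelled Iqch-/-, each from a testis of a separate mouse. The mutant mice were homozygous for a CRISPR-Cas9 deletion in exon 19 of Iqch, made in zygotes of B6CBAF1 mice, an F1 cross of C57BL/6 and CBA. The deletions are frameshifts in 2 lines (mu5 and mu7), and the labels do not say which line each library came from. The study draws the mutant RNA-seq reads over Iqch as those of mu7, and its other phenotypes are also of mu7. The wild-type mice carry no edit, and the labels name no treatment of either group. One mutant was set aside by the authors because it stood out from the others. Mutant 3 is not analysed here, and the mutants are numbered 1, 2 and 4.

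The values are CPM: a gene's count divided by the sum of all counts of its library in the table and multiplied by 1000000. Each library held between 32064384 and 37551057 such reads. Iqch itself was measured at 216.6, 205.9, 216.2 and 192.6 CPM in wild type 1 to 4 and at 67.8, 64.8 and 69.2 CPM in mutants 1, 2 and 4, a log2 fold change of -1.63 (SE 0.05, FDR 1.9e-10, limma). All 3 mutants were below all 4 wild types, so the targeted gene followed the labels. Markers of the defining cells of a testis were present at high level, with spermatid markers summing to 21917–23186 CPM in the wild type and 14037–16097 CPM in the mutants. Markers of epididymis and efferent ducts, which lie beside the testis, were nearly absent: 1 of 8 was in the table, Rnase10, at 1.98 CPM in the wild type and 3.85 CPM in the mutants. Its libraries lay at 1.765–2.184 and 2.979–4.511 CPM, ranges that do not overlap. Hemoglobin and other red blood cell markers summed to 31.9–47.0 and 36.4–49.4 CPM, ranges that overlap.

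Retinol, or vitamin A, travels in blood bound to retinol binding protein and enters cells through the receptor STRA6. Cells oxidise it to retinal and then to retinoic acid, which is bound by cellular carriers, switches on genes through nuclear receptors and is degraded by enzymes of the CYP26 family. In the testis retinoic acid is known for starting the differentiation of spermatogonia, the entry into meiosis and the release of sperm. It is made both in Sertoli cells, the supporting cells of the tubule, and in germ cells, and the peritubular myoid cells that wrap the tubule are known for breaking it down.

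Among the 9 genes, Aldh1a1, Stra6, Rara and Aldh1a2 were higher in the mutant testis, Rdh11 was lower, and Rbp4, Crabp1, Rdh10 and Cyp26b1 did not pass the test. A gene was called when its Benjamini-Hochberg false discovery rate (FDR) over all 17126 tested genes was at most 0.01 in limma. The 5 called genes are 55.6% of the 9, and 50.4 percent of all tested genes were called, 36.3 percent higher and 14.2 percent lower. The share among these genes was therefore near the background. The absolute log2 fold change of Aldh1a1 was at the 90.8 percentile of all tested genes, that of Stra6 at the 87.5, that of Rara at the 60.7 and that of Rdh11 at the 50.7 percentile. The other 5 genes lay between the 18.7 and the 45.9 percentile, the last of which was the median of the 9. The median log2 fold change was 0.19 over the 9 genes and 0.12 over all tested genes. The cause of that shift of all genes was not tested. Size factors, set from the median ratio of each library, take out such a shift by construction. When libraries were rescaled with median-of-ratios size factors, 5 of the 9 genes were called beside 52.1 percent of all genes (27 percent higher, 25.1 percent lower). With TMM factors, another rescaling, the count was again 5 beside 52.1 percent (28.1 percent higher, 24 percent lower). At an FDR of 0.05, 6 of the 9 were called beside 62.8 percent of all genes. In 5 of the 9 genes the libraries of the groups did not overlap, as in 62.3 percent of all genes, 42.8 percent with every mutant above and 19.5 percent with every mutant below.

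**Figure D1:**
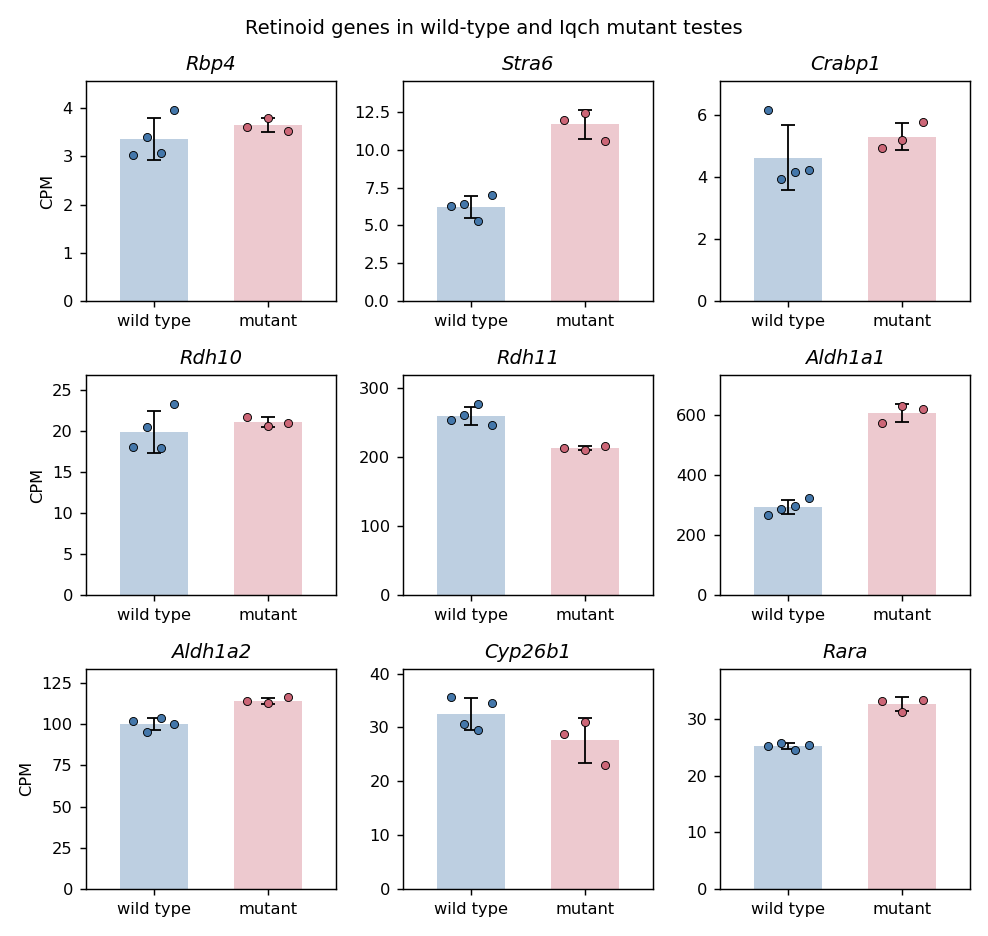
CPM of the 9 genes (y axes, each starting at 0) in the wild-type and Iqch mutant testes. Points are single libraries (4 wild type, 3 mutant), bars the means and error bars the SD; mutant points lie wholly above the wild-type points for Stra6, Aldh1a1, Aldh1a2 and Rara, wholly below for Rdh11, and overlap them for the other 4 genes.

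The promoters were read first for the DNA letters that retinoic acid receptors are known to bind. Such elements consist of half-sites, written here as AGGTCA or its variant AGTTCA, and were searched on both strands from 250 bases before to 50 bases after the GENCODE canonical start of each gene in GRCm39. AGGTCA was in 14.7% of 17044 promoters and in that of 1 of the 9 genes, Rdh11. AGTTCA was in 12.5% of promoters and in 5 of the 9, those of Stra6, Rdh11, Aldh1a1, Cyp26b1 and Rara. Whole elements, known as DR5 and DR2, are direct repeats of such half-sites, searched here with A or G allowed as the first letter and G or T as the third. DR5, with 5 bases between the half-sites, was in 7 promoters and DR2, with 2 bases, in 30, none of them a promoter of the 9 genes. The stretches below are shown for the 4 called genes that held a half-site. They are printed on the strand of the gene, with the half-site, or its reverse complement TGAACT, in capitals, and with chromosome, first and last base in GRCm39. Positions are counted from the start base, which is 0, to the first letter in capitals. Rdh11 also held AGTTCA at position -221, in a stretch that is not printed.
Stra6, chr9:58041362-58041389, plus strand, half-site at position 15: caggcaggcgaAGTTCAtcttctcccag
Rdh11, chr12:79239042-79239069, minus strand, half-site at position 9: ccatagggcaaAGGTCAtctctgaggaa
Aldh1a1, chr19:20576994-20577021, plus strand, half-site at position -170: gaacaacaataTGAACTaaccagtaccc
Rara, chr11:98828218-98828245, plus strand, half-site at position -205: attcttttctcTGAACTtcacaccgccc
Start sites differ between annotations, and of these stretches the one of Stra6 was also found in a RefSeq promoter window. In the RefSeq windows (GRCm38.p6, 17 windows for 8 of the 9 genes, with no entry for Rdh10) either half-site was in 27.7% of all windows and in 4 of the 17, which belonged to Rara, Rdh11 and Stra6. The half-sites were found in promoters of genes that were higher, lower and not called, and a match of letters is not a binding site.

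Transport and uptake were carried by 3 of the genes, of which Stra6 changed. Stra6, the membrane receptor for retinol binding protein (ENSMUSG00000032327, chr9:57970967-58063543, plus strand, 19 exons in the canonical transcript), was at 6.25, 6.41, 5.26 and 7.03 CPM in wild type 1 to 4. It was at 12.0, 12.4 and 10.6 CPM in mutants 1, 2 and 4. The lowest mutant was above the highest wild type, and the groups did not overlap. The means were 6.24 ± 0.731 (SD, n = 4) and 11.7 ± 0.961 CPM (SD, n = 3), a log2 fold change of 0.90 (SE 0.11, 95% interval 0.66 to 1.14, FDR 1.7e-05).

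Rbp4, the retinol carrier of blood (ENSMUSG00000024990, chr19:38105066-38113754, minus strand, 6 exons), was at 3.02, 3.41, 3.07 and 3.97 CPM in the wild type and at 3.62, 3.80 and 3.53 CPM in the mutants. The highest single value was that of wild type 4 and the groups overlapped. The log2 fold change was 0.12 (SE 0.14, 95% interval -0.17 to 0.42, FDR 0.454), and its sign turned with size factors (-0.01). At this level 101 reads stood behind the lowest value of Rbp4, the fewest behind any value of the 9 genes. Of its exon bases, 15.6% overlap exons of Ffar4 on the opposite strand, and since the strand setting of the counting is not given in the sources used here, reads of those genes may be shared.

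Crabp1, a cellular protein that binds retinoic acid (ENSMUSG00000032291, chr9:54671171-54680403, plus strand, 4 exons), was at 6.16, 3.93, 4.17 and 4.23 CPM in the wild type. It was at 4.94, 5.18 and 5.77 CPM in the mutants. Wild type 1 was above every mutant, and the other 3 wild types were below every mutant. The log2 fold change was 0.21 (SE 0.15, 95% interval -0.12 to 0.54, FDR 0.245), and without wild type 1 it was 0.36 (SE 0.12, FDR 0.0265), which also missed the threshold. Crabp2, its close relative, is not in the table.

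The first oxidation, from retinol to retinal, is the step of Rdh10, and Rdh11 interconverts retinal and retinol. Rdh10, the enzyme on which embryonic retinoic acid synthesis depends (ENSMUSG00000025921, chr1:16175555-16203958, plus strand, 6 exons), was at 17.98, 20.4, 17.9 and 23.3 CPM in the wild type. It was at 21.8, 20.6 and 21.0 CPM in the mutants, all within the range of the wild type. Its log2 fold change of 0.09 (SE 0.09, 95% interval -0.10 to 0.29, FDR 0.391) did not pass the test and had the other sign with size factors (-0.04) and TMM factors (-0.03).

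Rdh11, known for reducing retinal in a range of tissues (ENSMUSG00000066441, chr12:79220408-79239067, minus strand, 7 exons), was at 253.2, 260.1, 276.8 and 245.3 CPM in the wild type and at 212.2, 210.3 and 215.5 CPM in the mutants. All mutants were below all wild types and were close to one another. The mean fell from 258.9 ± 13.4 (SD, n = 4) to 212.7 ± 2.63 CPM (SD, n = 3), a log2 fold change of -0.28 (SE 0.04, 95% interval -0.38 to -0.18, FDR 1.4e-04). It was the one called gene of the 9 that was lower. Its exon bases overlap the lncRNA Gm61068 on the opposite strand over 11.8% of their length.

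The second oxidation, from retinal to retinoic acid, showed the largest change of the 9 genes. Aldh1a1, a retinal dehydrogenase known for its high level in Sertoli cells (ENSMUSG00000053279, chr19:20469539-20622825, plus strand, 13 exons), was at 268.2, 288.2, 299.2 and 325.4 CPM in the wild type. It was at 575.0, 631.9 and 621.2 CPM in the mutants. Every mutant was far above every wild type, and the spread within each group was small beside the gap. The means were 295.2 ± 23.9 (SD, n = 4) and 609.4 ± 30.2 CPM (SD, n = 3), or 2.06-fold higher, with a log2 fold change of 1.05 (SE 0.06, 95% interval 0.92 to 1.18, FDR 2.2e-08). A change of more than 1 in the higher direction was called for 8.79 percent of all tested genes.

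Aldh1a1 has a close copy on the same chromosome, Aldh1a7, and 3.27% of the 50-base stretches of its canonical transcript recur in transcripts of other genes, Aldh1a7 among them. Aldh1a7, looked at after its values were seen, was at 14.6 ± 4.47 CPM in wild-type testes (SD, n = 4) and at 44.8 ± 3.54 CPM in the mutants (SD, n = 3), with a log2 fold change of 1.66 (SE 0.18, FDR 6.0e-06). The values of both are uncertain by the reads they may share, and per kb of annotated exons Aldh1a7 was the lower of the pair, at 2.77 CPM per kb in the wild type and 8.47 CPM per kb in the mutants.

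Aldh1a2, the retinal dehydrogenase known from germ cells and from the embryo (ENSMUSG00000013584, chr9:71122630-71203527, plus strand, 14 exons), was at 102.1, 95.6, 104.0 and 100 CPM in the wild type. It was at 113.9, 112.6 and 116.3 CPM in the mutants. The groups did not overlap, but the gap between them was narrow. The means were 100.4 ± 3.63 (SD, n = 4) and 114.3 ± 1.88 CPM (SD, n = 3), a log2 fold change of 0.19 (SE 0.04, 95% interval 0.09 to 0.28, FDR 0.00253). The call was lost with size factors (0.05, FDR 0.332) and with TMM factors (0.07, FDR 0.219), and without wild type 2 (FDR 0.0103) or mutant 4 (FDR 0.016).

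Breakdown was represented by Cyp26b1, a cytochrome P450 that hydroxylates retinoic acid (ENSMUSG00000063415, chr6:84548396-84570890, minus strand, 6 exons). It was at 35.6, 30.6, 29.5 and 34.6 CPM in the wild type and at 28.8, 31.0 and 23.0 CPM in the mutants. Mutants 1 and 4 were below every wild type and mutant 2 was within their range. The means were 32.6 ± 2.99 (SD, n = 4) and 27.6 ± 4.14 CPM (SD, n = 3), a log2 fold change of -0.25 (SE 0.10, 95% interval -0.46 to -0.03, FDR 0.0461) that missed the threshold. With size factors it was called lower (-0.38, FDR 0.005), as it was with TMM factors (-0.37, FDR 0.0059). Without mutant 4, the lowest library, the log2 fold change was -0.12 (FDR 0.261). The other enzymes of the family, Cyp26a1 and Cyp26c1, are not in the table.

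Rara, the retinoic acid receptor alpha through which Sertoli cells and germ cells respond (ENSMUSG00000037992, chr11:98818612-98865768, plus strand, 9 exons), was at 25.3, 25.8, 24.6 and 25.4 CPM in the wild type. It was at 33.2, 31.2 and 33.5 CPM in the mutants. The wild types were nearly alike and every mutant was above them. The means were 25.2 ± 0.5005 (SD, n = 4) and 32.6 ± 1.21 CPM (SD, n = 3), a log2 fold change of 0.37 (SE 0.06, 95% interval 0.25 to 0.49, FDR 9.9e-05). Aldh1a1, Stra6, Rara and Rdh11 kept their call under every rescaling, filter, pseudocount and left-out library that was run.

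Levels of different genes can be set side by side only per length, here as the mean wild-type CPM per kb of all annotated exons. Rdh11 was the most abundant at 62.2 (59.0–66.5 over the 4 libraries), before Aldh1a1 at 27.5 (25.0–30.3) and Aldh1a2 at 21.7 (20.7–22.5). Cyp26b1 followed at 5.72, Rdh10 at 4.33, Rara at 4.01, Crabp1 at 3.54, Rbp4 at 2.36 and Stra6 at 0.739. The ranges of Rdh10 and Rara overlapped, as did those of Rara and Crabp1, while all other neighbours in this order were apart in every library. In the mutants Aldh1a1, at 56.7 CPM per kb, was above Rdh11, at 51.1. On the length of the canonical transcript alone, Rdh11, Aldh1a1 and Aldh1a2 again stood first in the wild type (65.3, 47.6 and 37.1 CPM per kb) and Stra6 last (1.17), but the order between them changed, with Rara at 7.56 above Cyp26b1 at 6.07.

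Ratios within a library do not depend on how libraries are scaled, and 5 were compared between the genotypes with a two-sided exact permutation test over the 35 ways of splitting 7 libraries into 3 and 4. The smallest p this design can give is 0.0286, and the Benjamini-Hochberg adjustment ran over the 5 ratios. The ratio of Aldh1a1 to Aldh1a2 in CPM was 2.94 ± 0.262 in the wild type (SD, n = 4) and 5.33 ± 0.283 in the mutants (SD, n = 3), a difference of 0.86 on the log2 scale (exact p = 0.0286, adjusted p = 0.0476), with all 3 mutants above all 4 wild types. The RNA ratio in whole testis thus moved towards Aldh1a1 in every mutant library. The part of the changed cell type markers in this ratio was not tested.

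The ratio of Aldh1a1 to Cyp26b1, a synthesis enzyme to a breakdown enzyme, rose from 9.12 ± 1.12 (SD, n = 4) to 22.5 ± 3.97 (SD, n = 3), by 1.29 on the log2 scale (exact p = 0.0286, adjusted p = 0.0476), again in all 3 mutants. The ratio of the carrier Rbp4 to its receptor Stra6 was 0.541 ± 0.0440 in the wild type (SD, n = 4) and 0.314 ± 0.0171 in the mutants (SD, n = 3), a log2 difference of -0.78 (exact p = 0.0286, adjusted p = 0.0476), lower in all 3 mutants. These 3 ratios hold genes whose own change had been seen and are no separate evidence of it.

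The ratio of Rdh10 to Rdh11 stood above all wild types in each mutant, with a mean difference of 0.37 on the log2 scale (exact p = 0.0571, adjusted p = 0.0714). The ratio of Rara to Rxrb, a partner receptor with which it binds DNA, differed by 0.08 on the log2 scale and the groups overlapped (exact p = 0.286, adjusted p = 0.286). Both receptors were higher in the mutants, and no difference between their changes was detectable in 7 libraries.

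**Figure D2:**
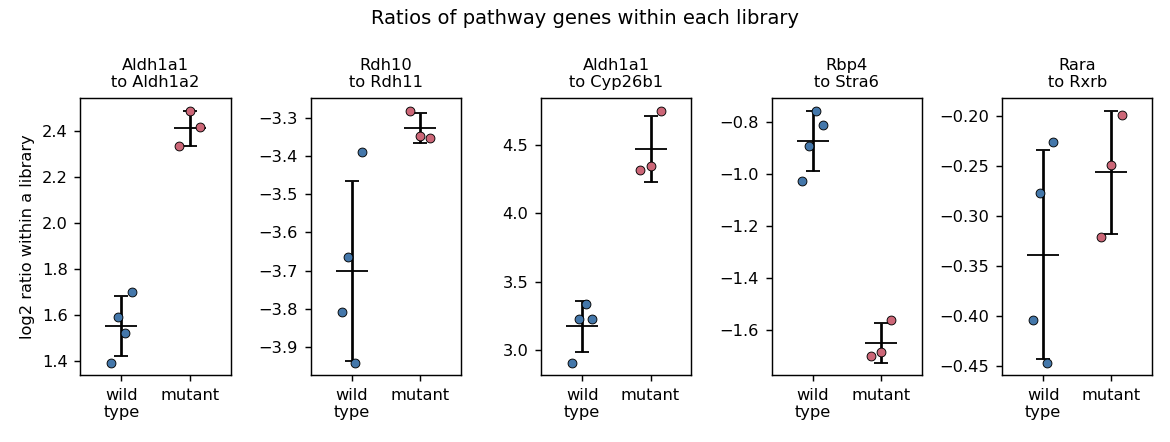
Log2 ratio of 2 genes within a library (y axes, each with its own range) for 5 pairs in wild-type (4 points) and Iqch mutant (3 points) testes, with the mean as a horizontal bar and the SD as the vertical bar. Groups do not overlap for Aldh1a1 to Aldh1a2 (mean difference 0.86), Rdh10 to Rdh11 (0.37), Aldh1a1 to Cyp26b1 (1.29) and Rbp4 to Stra6 (-0.78). They overlap for Rara to Rxrb.

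Beyond the 9 genes, 59 further genes of the pathway were listed by role, of which 36 were in the table and were tested. Of these, 16 were higher, 1 was lower and 19 did not pass, so that 47.2% were called, against the 50.4 percent of all genes. Their median log2 fold change was 0.29 beside 0.12 over all tested genes, and 10 of the 36 were called higher by more than 1, beside 8.79 percent of all tested genes. The dehydrogenases held 6 of these 10, and the receptors and cofactors none. The counts of risen genes by role that follow stand beside the 36.3 percent of all genes called higher.

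Of the other carriers, 2 of 9 were in the table and 1 rose. Fabp5, a fatty acid binding protein that can also carry retinoic acid, was at 2.96, 1.95, 2.13 and 2.77 CPM in wild type 1 to 4 and at 10.5, 11.2 and 11.8 CPM in mutants 1, 2 and 4. Every mutant was above every wild type, and the log2 fold change of 2.16 (SE 0.15, FDR 1.1e-07) was larger than that of any of the 9 genes. Lrp2, an endocytic receptor, did not pass.

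Of the enzymes that interconvert retinol and retinal, 9 of 18 were in the table, 5 rose and 4 did not pass. Adh1, an alcohol dehydrogenase that oxidises retinol, was at 5.03–10.2 CPM in wild-type testes and 25.8–36.1 CPM in the mutants (log2 fold change 2.15, SE 0.21, FDR 2.1e-06). Dhrs7 (1.5003, SE 0.08), Dhrs3, which returns retinal to retinol (1.40, SE 0.12), Adh5, best known for its part in formaldehyde removal (1.26, SE 0.06), and the mitochondrial Rdh13 (1.03, SE 0.14) rose as well, each with an FDR of at most 3.7e-05. In 7 of the 9 genes, these 5 with Rdh14 and Adh4, every mutant was above every wild type, beside 42.8 percent of all genes. Rdh14, Dhrs4, Adh4 and Adh7 did not pass, as Rdh10 did not, and Rdh11 was lower.

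Aldh1a3, the third retinal dehydrogenase, rose from 3.60 ± 0.648 (SD, n = 4) to 9.64 ± 0.465 CPM (SD, n = 3), a log2 fold change of 1.41 (SE 0.14, FDR 2.0e-06), and Aldh8a1 did not pass. Of the storage and carotenoid genes, 5 of 6 were in the table. Lipe, hormone-sensitive lipase, which can release retinol from its esters and is better known for splitting other lipids, fell from 382.5 ± 11.0 (SD, n = 4) to 288.9 ± 15.8 CPM (SD, n = 3), by 0.41 on the log2 scale (SE 0.04, FDR 5.7e-06). Lrat, the enzyme that esterifies retinol, was at 14.8 ± 0.788 CPM (SD, n = 4) and 13.8 ± 0.885 CPM (SD, n = 3) and did not pass (-0.10, FDR 0.277).

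Of the other receptors and cofactors, 9 of 11 were in the table, 6 rose and 3 did not pass, all 6 by less than 1. Rxra, the receptor with the largest change in this list, was at 46.3–53.5 CPM in wild-type testes and 68.7–76.0 CPM in the mutants (log2 fold change 0.52, SE 0.06, FDR 8.0e-06). Rxrb was at 29.7–33.5 and 37.1–41.5 CPM (0.29, SE 0.06, FDR 0.00178), and that call was lost with size factors (FDR 0.0623), with TMM factors (FDR 0.0448) and without mutant 1 (FDR 0.0117). The cofactors Ncor1 (0.16, FDR 0.00373) and Ncoa3 (0.18, FDR 0.00935) were near the threshold and were lost under either rescaling. The call of Ncoa3 was also lost whichever library was left out, and that of Ncor1 without wild type 2, mutant 2 or mutant 4.

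Of the genes known to respond to retinoic acid, 9 of 11 were in the table, 3 rose and 6 did not pass. Kit, the receptor of stem cell factor in differentiating spermatogonia and in Leydig cells, was at 18.4–23.7 CPM in wild-type testes and 50.6–72.7 CPM in the mutants (log2 fold change 1.504, SE 0.11, FDR 2.4e-07). Tgm2, tissue transglutaminase, was at 10.3–17.2 and 44.3–53.5 CPM (1.83, SE 0.13, FDR 1.8e-07), and Rarres1 at 7.72–9.13 and 16.2–19.3 CPM (1.09, SE 0.09, FDR 6.5e-07).

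The germ cell genes Stra8, Meiosin and Rec8 of this list did not pass, and neither did Sohlh1 (-0.13, FDR 0.321) and Sohlh2 (0.12, FDR 0.200). Stra8, which is needed for entry into meiosis, was at 9.72, 10.7, 9.56 and 12.5 CPM in the wild type and at 13.3, 14.2 and 11.9 CPM in the mutants. Mutant 4 was below wild type 4, and the log2 fold change of 0.31 had an FDR of 0.0202. Its partner Meiosin was at 11.9–18.8 and 14.96–19.3 CPM (0.28, FDR 0.0933). Rec8, a cohesin of meiosis, was at 59.4–72.2 and 63.6–71.8 CPM (0.04, FDR 0.656). Without wild type 4, the highest wild type for both, Stra8 (0.39, FDR 0.00353) and Meiosin (0.42, FDR 0.00324) were called higher. Rescaling made both changes smaller. With size factors Stra8 was at 0.18 (FDR 0.152) and Meiosin at 0.15 (FDR 0.363). With TMM factors Stra8 was at 0.19 (FDR 0.125) and Meiosin at 0.16 (FDR 0.317).

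**Figure D3:**
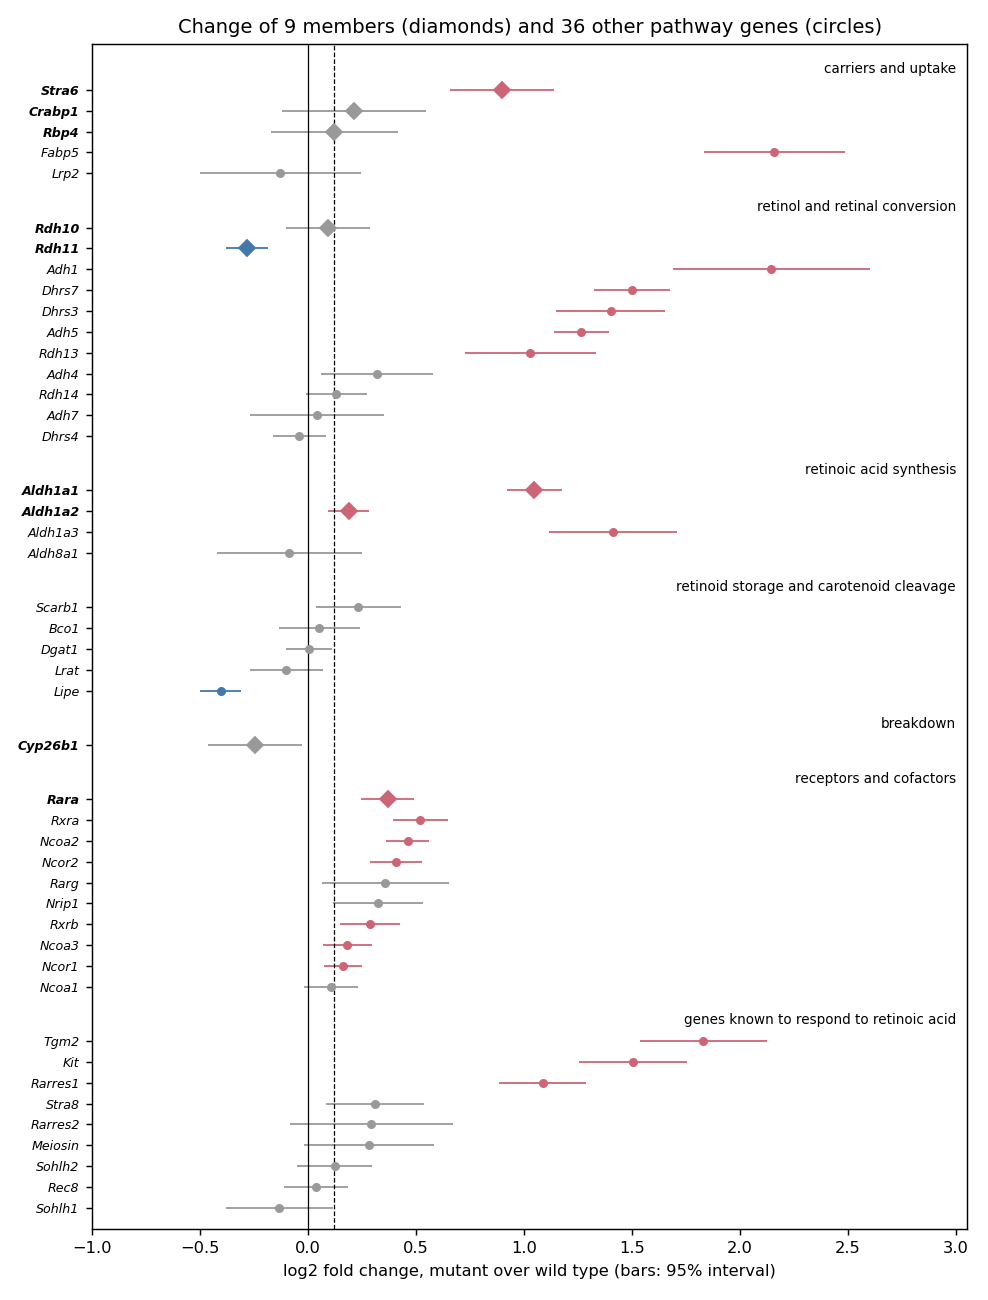
Log2 fold change, mutant over wild type (x axis), of the 9 genes (diamonds, bold names) and the 36 other tested pathway genes (circles), grouped by role, with 95% intervals. Red marks a gene called higher, blue lower and grey not called at an FDR of 0.01, and the dashed line is the median of all tested genes at 0.12.

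Since the libraries are whole testis, fewer cells of a type and less RNA per cell cannot be told apart, and marker lists of testis cells were summed in each library beside these results. The counts of called markers that follow stand beside 36.3 percent of all tested genes called higher and 14.2 percent called lower. All 10 Sertoli markers in the table were higher in the mutants, and their sum was 1158–1241 CPM in the wild type and 2383–2609 CPM in the mutants, a log2 fold change of 1.03. Clu, at 851 CPM in the wild type and 1816 CPM in the mutants (not corrected for length), made up most of this sum and changed by 1.09 on the log2 scale, and Cldn11 was at 80.6 and 155 CPM. The median log2 fold change of the 10 markers was 0.83. Fshr, a defining Sertoli marker, is not in the table.

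Aldh1a1 relative to the Sertoli sum, and so mainly to Clu, differed between genotypes by 0.01 on the log2 scale and overlapped. Its log2 fold change of 1.05 was above the median of the Sertoli markers. Stra6, known from Sertoli cells, likewise overlapped relative to that sum, with a difference of -0.14. The log2 difference relative to the Sertoli sum was -0.67 for Rara, -0.94 for Rdh10 and -0.85 for Aldh1a2, and the groups were apart for each. The part of the Sertoli markers' rise in the higher Aldh1a1 and Stra6 was not tested.

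Leydig cell markers rose further: 8 of 9 were called higher, and their sum went from 1168–1389 CPM to 4838–4978 CPM, or 1.97 on the log2 scale. Insl3 led with 438 and 2941 CPM, before Cyp17a1 with 329 and 548 CPM. On the log2 scale Insl3 changed by 2.75 and Cyp17a1 by 0.74, and the median of the 9 markers was 1.65. Aldh1a1 relative to the Leydig sum, and so largely to Insl3, was lower in the mutants (-0.92). Macrophage markers were higher for 7 of 8, with sums of 76.6–86.0 and 199–233 CPM, and endothelial markers for 2 of 5, with sums of 30.6–34.5 and 44.0–46.4 CPM.

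Peritubular myoid markers, set beside Cyp26b1, summed to 390–464 CPM in the wild type and 350–395 CPM in the mutants, with 2 of 6 higher, 1 lower and 3 not called. Actg2, with the most CPM, was at 299 and 221 CPM, and Myl9 at 45.5 and 69.4 CPM. Actg2 made up most of this sum, and the median log2 fold change of the 6 markers was 0.06, beside -0.17 for the sum. Cyp26b1 relative to the sum differed by -0.08 on the log2 scale and overlapped, as it did relative to the spermatocyte sum (-0.16). Relative to the Sertoli sum it was lower in every mutant (-1.28).

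Among germ cells, spermatogonial markers summed to 141–151 and 167–181 CPM (4 of 8 higher, the rest not called), led by Uchl1 at 49.4 and 60.3 CPM and Id4 at 33.8 and 38.5 CPM. Crabp1 relative to this sum differed by -0.05 and overlapped, as did Rara (0.11) and Aldh1a2 (-0.07). Spermatocyte markers summed to 1591–1669 and 1471–1571 CPM, with 1 of 9 higher, 2 lower and 6 not called, led by Piwil1 at 481 and 461 CPM and Sycp2 at 313 and 306 CPM. Spermatid markers were lower for 8 of 9, led by Prm2 at 6134 and 4041 CPM and Prm1 at 4970 and 3141 CPM.

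Rdh11, the gene of the 9 that was lower, fell by less than the spermatid sum, which changed by -0.59 on the log2 scale, and by more than the spermatocyte sum, which changed by -0.09. Relative to the spermatid sum it was 0.31 higher on the log2 scale in the mutants, and relative to the spermatocyte sum it differed by -0.19, both without overlap. Aldh1a2 was higher in the mutants relative to either sum (0.78 and 0.28), also without overlap. The part of the changed germ cell markers in these results was not tested.

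**Figure D4:**
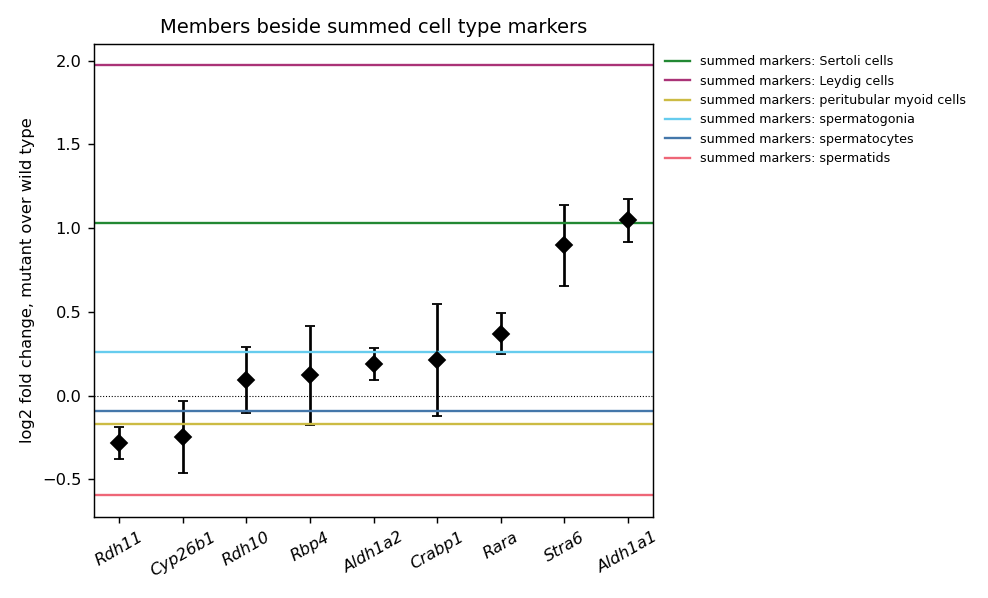
Log2 fold change, mutant over wild type (y axis), of each of the 9 genes (diamonds with 95% intervals), with coloured lines for the log2 fold change of the summed markers of 6 testis cell types. The intervals of Aldh1a1 and Stra6 span the line of the Sertoli sum (1.03), that of Cyp26b1 spans the lines of the peritubular myoid sum (-0.17) and the spermatocyte sum (-0.09), and Rdh11 lies between the spermatocyte and spermatid (-0.59) lines.

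Genes that followed the same pattern over the 7 libraries were many, since these correlations rest mainly on the gap between the genotypes. For Aldh1a1, 3288 genes had a Pearson r above 0.95 on the log2 scale, and the highest were Tmem123 (0.9996), Wdr82 (0.9994) and 2210016L21Rik (0.9993). For Stra6 there were 1933 such genes, led by Ubash3b (0.9976), H2-Eb1 (0.9969) and Pttg1ip (0.9964).

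Stra6, Crabp1 and Aldh1a2 lie on chromosome 9 within 20 Mb of Iqch (chr9:63328687-63509775), at 5.27, 8.65 and 7.61 Mb. The edited zygotes came from a cross of strains, and whether strain alleles near Iqch differ between the groups was not tested. Of the tested genes within 20 Mb of Iqch, 171 of 357 were called (47.9%), compared with 271 of 583 on the rest of the chromosome (46.5%) and 8161 of 16103 on other chromosomes (50.7%). Exons on the opposite strand also overlap 8.4% of the exon bases of Aldh1a2, 6.0% of those of Aldh1a1 and at most 3.9% with any one lncRNA for Rara, while Crabp1, Rdh10 and Cyp26b1 had no such overlap.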

How the data were processed

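Whole testis RNA of 4 wild-type and 3 Iqch mutant mice was measured by RNA-seq (TruSeq kit, paired-end reads). For the mapping to GRCm39 the authors used Trimmomatic and then Subread, with featureCounts for the counting per gene. They removed genes that did not reach 75 reads in 2 samples of either group, and used edgeR and DESeq2 for their own calls. The deposited values are CPM that sum to 1000000 in each library over 17127 genes, with no between-sample factor found in them. All values were whole multiples of the CPM of 1 read (within 0.01 read). The annotation release is not given in the sources used here.

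Tests used limma 3.58.1 in R 4.3.3 with a mean-variance trend, on log2(CPM + 0.1), so that fold changes of low genes are understated. The minimum was 2.2 CPM in 2 libraries of the same genotype, passed by 17126 genes and missed by 1. Calls were made at a Benjamini-Hochberg FDR of 0.01 over all tested genes. Ratios within a library were tested with exact permutation tests in Python 3.11.15. The fit was also run on simulated counts in which few genes changed, unlike the data here, and no conclusion is drawn from that run. Symbols, lengths and start sites came from GENCODE M39 (17045 genes matched, 99.5%), further promoters from RefSeq.

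The 9 genes, the pathway list and the marker lists (Sertoli, Leydig, peritubular myoid, endothelial, macrophage, spermatogonial, spermatocyte, spermatid, epididymis and red blood cell) were chosen with earlier results of these data known. One gene of the pathway list is not reported here and was left out of its counts. The genes named were the 9, in each role list those called and changed by more than 1 on the log2 scale or else the gene with the largest change, the genes of the ratios, Iqch, the 3 genes most like each of the 2 called genes with the largest changes, and the 2 most abundant markers of each list that one of the 9 was set beside. Stra8, Meiosin, Rec8, Lrat, Lrp2, Aldh8a1, Rdh14, Dhrs4, Adh4, Adh7, Ncor1, Ncoa3, Aldh1a7, and the genes that overlap others or are absent from the table were named after their values were seen. Sohlh1 and Sohlh2 were also named after their values were seen. The alternatives were a pseudocount of 1 or 0.01, no minimum or one of 5 CPM, median-of-ratios size factors, TMM factors, limma's array weights, the replicate number as a block, an FDR of 0.05 and each library left out in turn.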

Additional observations from a re-analysis of the deposited data

Results flagged for a closer look

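Crabp1 in wild type 1, at 6.16 CPM, stood apart from the other 3 wild-type libraries, which were at 3.93 to 4.23 CPM. Its gap to the nearest of them was 0.865 of the range of the group, above Dixon's critical value of 0.829 for 4 samples. It was the 1 value of 43 tested that stood apart in this way, and chance alone marks about 1 in 20 such groups.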

How the results depend on the processing

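Of the 9 genes, 5 were called in the reported fit and under every alternative (with size factors and TMM factors Cyp26b1 in place of Aldh1a2) except without wild type 2 or without mutant 4, where Aldh1a2 was lost and 4 were called, and at an FDR of 0.05, where Cyp26b1 was added and 6 were called (background 62.8 percent). The number called lower was 2 with size factors, with TMM factors and at an FDR of 0.05, Cyp26b1 joining Rdh11. With size factors and TMM factors the median log2 fold change of the 9 genes was 0.0521 and 0.0655, beside 0.187 as reported, and the genes called were 52.1 percent of all tested under each. The sign turned for Rbp4 with size factors (-0.0099), for Rdh10 with size factors (-0.0421) and TMM factors (-0.0287), and for Rec8 with size factors (-0.0983), TMM factors (-0.0849), without wild type 4 (-0.0183) and without mutant 4 (-0.0003; its range with single libraries dropped was -0.0183 to 0.0872). None of these 3 genes was called in any of these fits. Between 14 and 22 of the 36 other pathway genes were called over the alternatives, beside 17 as reported. When single libraries were dropped, the log2 differences ranged from 0.8072 to 0.9101 for Aldh1a1 to Aldh1a2, from 1.1532 to 1.371 for Aldh1a1 to Cyp26b1 and from -0.8275 to -0.7383 for Rbp4 to Stra6. With 6 libraries the adjusted p of these ratios in the exact test was 0.125 without a wild type and 0.111 without a mutant. With AGTTCA as well as AGGTCA, 5 rather than 1 of the 9 promoters held a half-site, beside 25.2 rather than 14.7 percent of all 17044 promoters. The replicate numbers did not pair the samples (correlations of same-numbered deviations 0.026, 0.009 and -0.098). With the replicate number as a block, 5 of the 9 genes were called as reported, 15 of the pathway genes were called, with Ncor1 and Ncoa3 lost, and the ratios differed by 0.851, 1.3478 and -0.7383 (exact sign-flip, smallest possible p = 0.25). The planned edgeR and DESeq2 fits on reads recovered from the CPM were not run, so that no count model stands beside the limma calls. The reads behind each value limit Rbp4, Crabp1 and Stra6 most.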
